A study of Mus musculus with 24 samples.

Results

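Il10, which encodes the anti-inflammatory cytokine IL-10, was examined together with 4 transcription factors reported to act on it in T cells, Maf, Prdm1, Ahr and Nfil3. The members were every probe set whose only gene symbol in the array's annotation was one of these 5 names, which gave 11 of the 45101 probe sets: 1 for Il10, 6 for Maf, 1 for Prdm1, 2 for Ahr and 1 for Nfil3. Among the 18193 genes that had a probe set of their own, the 5 genes were chosen from measured values of these same arrays, namely the higher Il10 and lower Maf with I-BET-762, so the differences between I-BET-762 and the controls are given for them as descriptions, with no test. The data came from CD4+ T cells of 2D2 mice, C57BL/6 animals whose transgenic T cell receptor sees a myelin peptide. All cells were primed in Th1-polarising culture on coated antibodies to CD3 and CD28, taken off the plates after 48 h and expanded for a further 2 days. Activated cells were then restimulated for 4 h on the same antibodies, and resting cells were not. In each state the cells had been grown with 0.25 µM I-BET-762, with 0.5 µM I-BET-762, with the control compound Control-768, or with the solvent DMSO, at 3 arrays a group and 24 arrays in all.

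I-BET-762 is a small molecule that occupies the acetyl-lysine pockets of the BET proteins, which read acetylated histones and help RNA polymerase leave promoters. The concentration of Control-768, and whether the compounds were present during restimulation, were not given in the sources used here. The labels call the arrays of a group biological replicates without saying whether each came from a separate animal, so p-values measure the spread between these samples. The RNA was amplified for 2 rounds before labelling, and the deposited values were linear intensities, with array medians from 37.4 to 44.4. Intensities of different probe sets are not comparable levels, so each gene is compared only with itself across groups.

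IL-10 is made by Th1 cells, among other T cells, and restrains antigen-presenting cells and the T cells themselves. In T cells the bZIP factor c-Maf (Maf) binds and activates the Il10 gene. Blimp-1 (Prdm1), the aryl hydrocarbon receptor (Ahr, a receptor for small aromatic ligands) and NFIL3 (Nfil3, a bZIP factor also tied to the circadian clock) have each been linked to IL-10 production by T cells in mice.

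For 2 of the 5 members, the RefSeq promoter table (GRCm38.p6) held a sequence from 250 bases before to 50 bases after an annotated start site. Both, for Prdm1 and Nfil3, are shown, and the other members had no entry there. Capitals mark matches, on either strand, to the letters searched.
Prdm1, chr10:44458699-44458998, minus strand: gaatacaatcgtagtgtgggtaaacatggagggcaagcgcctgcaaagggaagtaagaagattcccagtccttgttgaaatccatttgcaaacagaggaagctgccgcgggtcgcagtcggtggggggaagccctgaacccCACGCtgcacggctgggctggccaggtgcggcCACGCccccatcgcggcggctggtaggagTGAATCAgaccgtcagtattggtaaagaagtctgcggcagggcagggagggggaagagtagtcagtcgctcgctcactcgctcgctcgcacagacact
Nfil3, chr13:52980990-52981289, minus strand: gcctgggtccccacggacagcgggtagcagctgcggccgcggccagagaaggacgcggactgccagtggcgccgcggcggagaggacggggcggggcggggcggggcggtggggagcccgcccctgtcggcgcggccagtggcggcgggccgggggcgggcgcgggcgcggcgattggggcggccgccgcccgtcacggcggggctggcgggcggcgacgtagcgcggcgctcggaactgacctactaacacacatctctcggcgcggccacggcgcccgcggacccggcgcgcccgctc
In the Prdm1 window the AHR core letters GCGTG stood on the opposite strand at 109 and 77 bases before the start, printed there as CACGC, and an AP-1 match (TGANTCA) began 48 bases before it. The Nfil3 window held no match to any of the 6 sets of letters, and 81.7% of its bases were G or C, against 59.7% in the Prdm1 window. Over 32544 promoters of that length, 32.6% held the AHR letters and 7.79% the AP-1 letters. The other letters searched were the MYC E-box CACGTG, in 7.17% of promoters, the MAF letters TGCTGA, in 19.5%, the Blimp-1 letters GAAAGT, in 14.4%, and the NFIL3 letters TTANGTAA, in 2.29%. No 2 of the marked stretches overlap, and a match is a description of the letters only.

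The cells carried T cell markers, since all 7 genes listed for CD4 T cells were clearly measured, with a summed intensity of 25530 to 36450 over the arrays. Of these only Cd4, at 364 to 1142, is particular to CD4 cells, and the others are shared with CD8 T cells. None of 5 measured B cell genes reached an intensity of 64 on any array, and of 8 macrophage genes only Csf1r did, with at most 158.5. Cd8b1 lay between 319.8 and 858.8 and Cd8a between 50.95 and 123.5. Since intensities of different probe sets are not comparable, these values do not settle the share of CD4 and CD8 cells. Of 4 regulatory T cell genes, the defining Foxp3 stayed between 19.55 and 47.94, while Il2ra (1343 to 6990), Ikzf2 (132.7 to 713.4) and Nrp1 (52.37 to 1275), which activated or other T cells also express, were measured. Nrp1 was called higher with 0.5 µM I-BET-762 in resting cells when replicate numbers were blocked within a state (log2 difference 1.34, adjusted p = 0.0458, limma). Other markers moved both ways in that comparison, with Cd3e (0.447) and Cd3g (0.364) called higher and Cd5 (-0.613) and the NK cell gene Klre1 (-0.675) lower. In activated cells at 0.5 µM the same fit called Cd3g higher (0.338). Of 5 dendritic cell genes Zbtb46 alone reached 64, with up to 221.4, and of 3 NK cell genes Klra8 alone, with up to 95.96. The part of such cells in the results was not tested. Replicate numbers marked arrays that deviated together within a state. The 8 arrays numbered 3 stood apart, where the SD over genes of the deviation from the group mean averaged 0.261 log2 units in activated and 0.291 in resting cells, against 0.192 to 0.207 for numbers 1 and 2. On the 4 activated arrays numbered 3 the 3′ to 5′ contrast of Gapdh, a sign of RNA integrity, was 0.149 to 0.312, against -0.0169 to 0.0994 on the other activated arrays. Values without these arrays are given beside the members' differences, and their part in the results was not tested. In bulk RNA, fewer cells with a transcript and less transcript per cell cannot be told apart.

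In cells grown without I-BET-762, Il10 was strongly higher after restimulation, Nfil3 was lower, and Maf, Prdm1 and Ahr did not pass the test. With Control-768, Il10 had intensities of 1616, 1959 and 8068 on the activated arrays, against 196, 93.8 and 170 on the resting ones. With DMSO it had 1722, 1177 and 7584 in activated and 109, 77.1 and 136 in resting cells. Every activated array lay above every resting array, and the array numbered 3 was the highest of each activated trio. The difference was 4.18 ± 0.68 on the scale of log2(intensity + 16) with Control-768 (SE; 18.2-fold) and 4.37 ± 0.68 with DMSO (20.7-fold), with Benjamini-Hochberg adjusted p of 0.000286 and 0.000201 in limma's moderated test over all genes. Without the arrays numbered 3 it was 3.56 and 3.74, and the test was still passed, with adjusted p of 0.00108 and 0.000765 from limma.

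Nfil3 ran the other way, and whether this bears on Il10 was not tested. With Control-768 its intensity was 1473, 1649 and 614 on activated arrays, against 2974, 3448 and 4297 on resting arrays. With DMSO it was 1020, 2063 and 473 in activated and 3223, 3463 and 4106 in resting cells. The groups did not overlap, and the lowest array of each activated trio was the one numbered 3. Nfil3 fell by 1.61 ± 0.48 on the log2 scale with Control-768 (adjusted p = 0.0206, limma) and by 1.82 ± 0.48 with DMSO (adjusted p = 0.00964, limma). Without the arrays numbered 3 the differences were -1.03 and -1.19 and still passed, with adjusted p of 0.0158 and 0.00673 from limma. The call was lost without replicate 1, with limma's adjusted p of 0.156 with Control-768 and 0.166 with DMSO, and in the Control-768 comparison also without replicate 2 (adjusted p = 0.0612). Leaving out single arrays ended it as well: limma's adjusted p was 0.136 without the activated Control-768 array numbered 3, 0.0704 without its resting counterpart and 0.0764 without the activated DMSO array numbered 3.

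Ahr was dim in resting cells, near the array medians. Its intensity was 106, 73 and 196 in activated and 46.5, 30.3 and 35.4 in resting cells with Control-768. With DMSO it was 144, 54.4 and 311 in activated and 31.3, 42.4 and 33.3 in resting cells. The groups did not overlap with either control, yet the differences of 1.32 ± 0.64 and 1.59 ± 0.64 on the log2 scale missed the threshold, with adjusted p of 0.170 and 0.0887 from limma. They were 0.96 and 1.02 without the arrays numbered 3. Over the processing alternatives that adjusted p ran from 0.0324 to 0.986 with Control-768 and from 0.0155 to 0.685 with DMSO, so the call for Ahr depended on the setting. The other Ahr probe set averaged only 8.12 to 21.9 in the 8 groups.

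Maf and Prdm1 were not shown to respond to restimulation. The Maf difference was 0.15 (95% interval -0.64 to 0.94) with Control-768 and -0.03 (-0.82 to 0.76) with DMSO, with adjusted p of 0.849 and 0.976 from limma. The Prdm1 difference was -0.41 (-1.17 to 0.35) with Control-768 and -0.37 (-1.13 to 0.39) with DMSO, with adjusted p of 0.503 and 0.544 from limma. Without the arrays numbered 3 the Maf differences were 0.43 and 0.25 and the Prdm1 differences -0.31 and -0.17, and none passed. These intervals leave room for changes of up to about 1 log2 unit. Thus 1 of the 5 members was called higher and 1 lower with each control. Over all 18193 genes, 8.86% were called higher and 11.2% lower with Control-768, and 9.1% higher and 11.7% lower with DMSO, and 1 call among 5 genes is too few to be set apart from these shares.

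**Figure D1:**
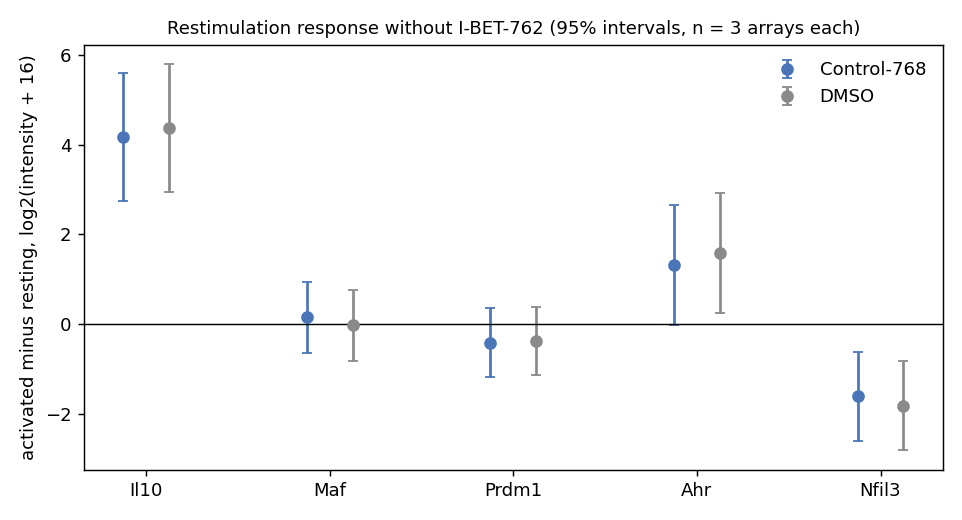
Difference between activated and resting cells (y axis, log2(intensity + 16)) for the 5 members in cells grown with Control-768 or DMSO; points are fitted differences and bars 95% intervals, with 3 arrays a group. The Il10 intervals lie above 0 and the Nfil3 intervals below it, while those of Maf and Prdm1 span 0.

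Both controls were next set against each other. The log2 difference of Control-768 minus DMSO was 0.24 ± 0.68 (SE) for Il10 among activated arrays and 0.43 ± 0.68 among resting arrays. For Maf it was 0.26 ± 0.38 in activated cells, where the Control-768 arrays, at 3856, 4082 and 4136, all lay above the DMSO arrays, at 3318, 3150 and 3596, and 0.08 ± 0.38 in resting cells. The other members differed by between -0.23 and 0.20. None of the 5 passed limma's test in either state, and neither did any other gene: 0% of genes were called, while 300 genes in activated and 428 in resting cells had an unadjusted p under 0.05. The response to restimulation did not pass a test of difference between the controls for any gene either, at 0% called and 347 genes with an unadjusted p under 0.05. For Il10 the difference of responses was -0.19 (95% interval -2.21 to 1.83).

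With I-BET-762, Il10 stood higher and Maf lower than with either control, in both states. Since these contrasts chose the genes, what follows describes their size and their pattern over arrays. The SEs given with them come from the fit without a replicate block. They therefore include the deviations that same-numbered arrays share, and they do not measure the spread of same-numbered differences. Activated cells had Il10 intensities of 5211, 2374 and 10523 with 0.25 µM I-BET-762. With 0.5 µM the activated arrays had 7945, 5921 and 15482, to be set against the 1616 to 8068 of Control-768 given above. All the activated groups overlapped, but within each replicate number both doses lay above both controls and 0.5 µM above 0.25 µM.

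Resting cells had Il10 intensities of 790, 240 and 415 with 0.25 µM and 2023, 788 and 952 with 0.5 µM I-BET-762. All 6 of these arrays lay above all 6 resting control arrays, of which the highest was at 196. Against Control-768 the log2 difference was 0.78 ± 0.68 (SE) at 0.25 µM and 1.60 ± 0.68 at 0.5 µM in activated cells, and 1.45 ± 0.68 and 2.84 ± 0.68 at these doses in resting cells. The largest of these is a 7.15-fold difference. Against DMSO the same differences were 1.02, 1.85, 1.89 and 3.27. These use the same I-BET-762 arrays, and same-numbered DMSO and Control-768 arrays deviated together, so they are not an independent repeat. Without the arrays numbered 3 the differences from Control-768 were 0.98 and 1.94 in activated and 1.57 and 3.07 in resting cells. Single arrays moved the activated differences further: over all left-out arrays they lay between 0.25 and 1.5 at 0.25 µM and between 1.17 and 2.33 at 0.5 µM, lowest at 0.25 µM without its own array 3 and highest at both doses without the Control-768 array 3. The resting differences lay between 1.03 and 1.85 and between 2.44 and 3.11.

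The order by dose held for Il10 in every one of the 6 sets of arrays that share a state and a replicate number: both controls lowest, then 0.25 µM, then 0.5 µM. Taken array by array, 0.5 µM I-BET-762 exceeded its same-numbered Control-768 array by 2.29, 1.59 and 0.94 log2 units in activated cells and by 3.27, 2.87 and 2.38 in resting cells. At 0.25 µM the same-numbered differences were 1.68, 0.28 and 0.38 in activated cells and 1.93, 1.22 and 1.21 in resting cells. The response to restimulation was 3.51 ± 0.68 in cells grown with 0.25 µM and 2.95 ± 0.68 with 0.5 µM, beside the 4.18 of Control-768. Whether these responses differ from each other was not tested. Ordered by group mean, the 4 activated groups held the first 4 places, at 9783, 6036, 3881 and 3494 for 0.5 µM, 0.25 µM, Control-768 and DMSO. The resting groups followed in the same order at 1255, 482, 153 and 107, and the only neighbours in this order whose arrays did not overlap were resting 0.25 µM I-BET-762 and resting Control-768.

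**Figure D2:**
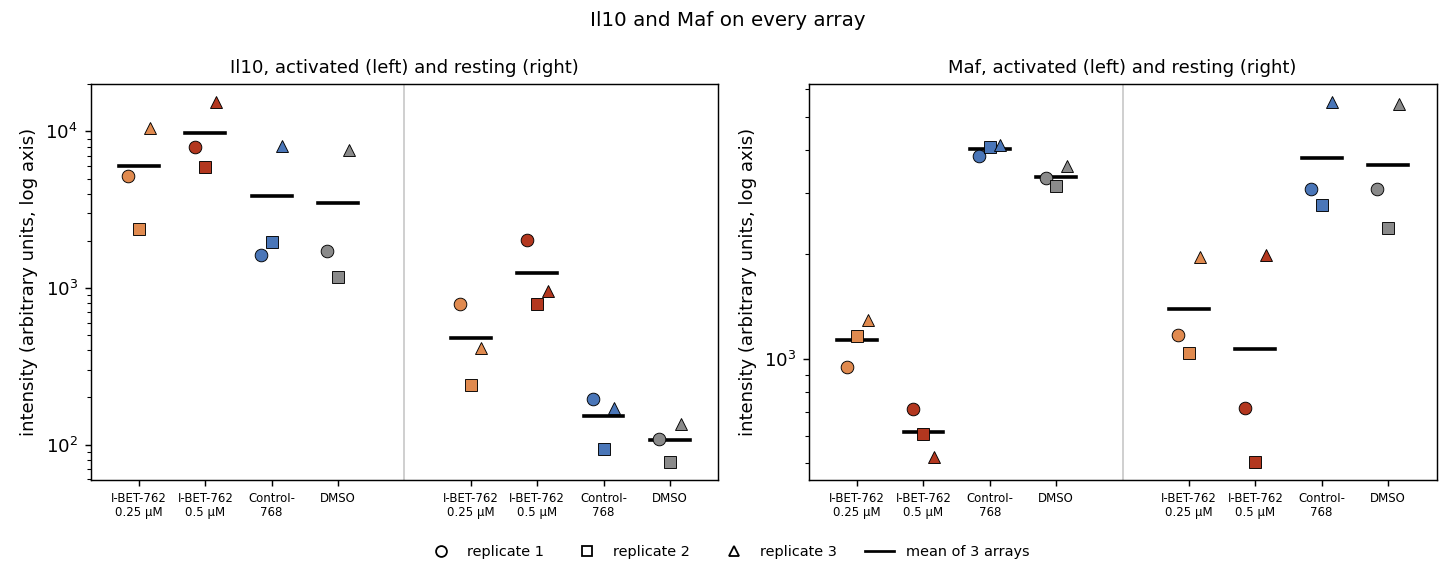
Intensity on a log axis of Il10 (left panel) and Maf (right panel, its brightest probe set) on each of the 24 arrays, by compound, with activated groups on the left and resting groups on the right of each panel; symbols are replicate numbers and bars the means of 3 arrays. Il10 is higher with I-BET-762 in both states and highest in activated cells, and all I-BET-762 arrays lie below all control arrays of their state for Maf.

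Maf, the activator, moved against Il10. On the probe set with the highest signal, activated cells had 949, 1166 and 1290 with 0.25 µM and 716, 609 and 520 with 0.5 µM I-BET-762. Resting cells had 1172, 1042 and 1966 with 0.25 µM and 719, 503 and 1990 with 0.5 µM. Control-768 gave 3083, 2787 and 5519 and DMSO 3092, 2379 and 5425 in resting cells. No I-BET-762 array reached any control array of its state. The resting arrays numbered 3 were the highest of their groups, and at 0.5 µM that array, at 1990, stood far above the other 2.

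Against Control-768, Maf differed by -1.82 ± 0.38 log2 units at 0.25 µM and -2.69 ± 0.38 at 0.5 µM in activated cells, and by -1.42 ± 0.38 and -1.99 ± 0.38 in resting cells. At 0.5 µM in activated cells that is 0.155 times the level with Control-768. Against DMSO the differences were -1.56 and -2.43 in activated and -1.34 and -1.91 in resting cells. Without the arrays numbered 3 the differences from Control-768 were -1.90 and -2.56 in activated and -1.39 and -2.25 in resting cells. Maf was below both controls and lower at 0.5 than at 0.25 µM in 5 of the 6 same-numbered sets, the exception being the resting set numbered 3, with 1990 at 0.5 µM and 1966 at 0.25 µM. In the order of group means the 4 control groups came first, from 4025 in activated Control-768 cells to 3355 in activated DMSO cells, and did not overlap with the I-BET-762 groups, which ran from 1393 in resting 0.25 µM cells to 615 in activated 0.5 µM cells.

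Of the other 5 Maf probe sets, 3 gave differences close to these. At 0.5 µM in activated cells the differences from Control-768 were -2.78, -2.83 and -2.30 for these probe sets in falling order of brightness, and in resting cells -2.40, -1.98 and -1.95. The other 2 probe sets were dim. The brighter of them averaged 42.8 to 81.1 and differed by -0.72 in activated and -0.35 in resting cells. The dimmest averaged at most 4.15 in any group, where no difference can be read.

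**Figure D3:**
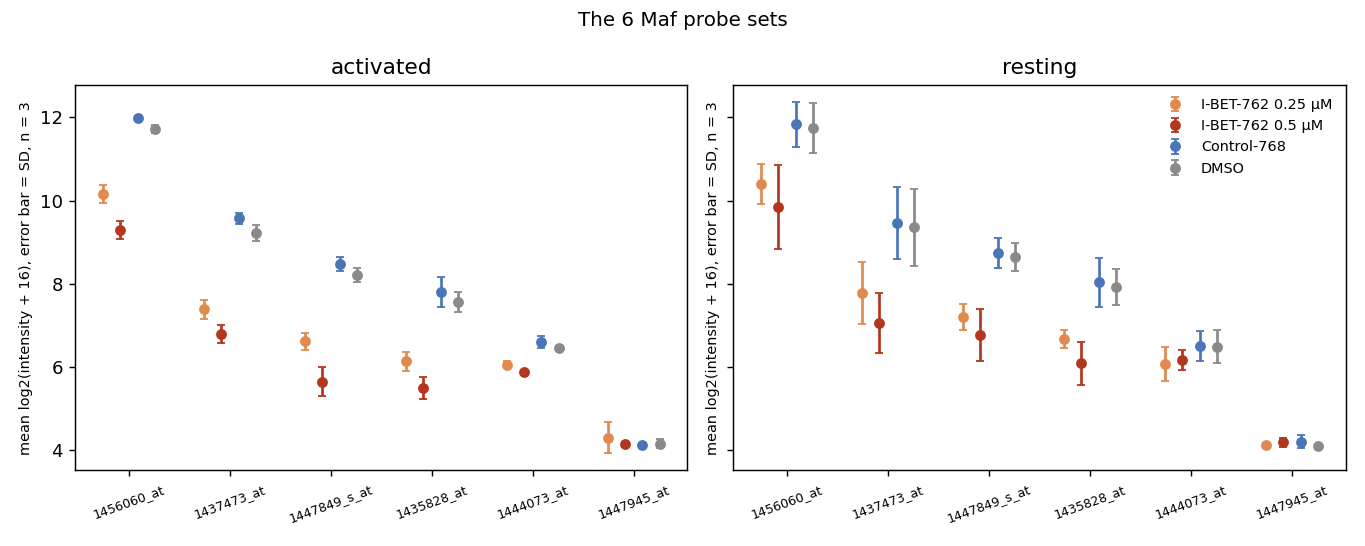
Mean log2(intensity + 16) of each Maf probe set in activated (left) and resting (right) cells by compound; error bars are SD over 3 arrays. Both I-BET-762 groups lie below both control groups for the 4 brightest probe sets in each state, and the dimmest stays at the floor.

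Prdm1, which encodes Blimp-1, was higher with I-BET-762 in resting cells. Its resting intensities were 1233, 1072 and 1183 with 0.25 µM and 1685, 1681 and 1711 with 0.5 µM, against 807, 864 and 1139 with Control-768 and 720, 745 and 969 with DMSO. The 0.5 µM group was the tightest of all and lay above every other array. The resting difference from Control-768 was 0.32 ± 0.36 log2 units at 0.25 µM and 0.86 ± 0.36 at 0.5 µM.

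In activated cells Prdm1 had 829, 995 and 908 with 0.25 µM and 1152, 1168 and 257 with 0.5 µM, against 549, 814 and 742 with Control-768 and 496, 847 and 558 with DMSO. The array numbered 3 at 0.5 µM was the lowest of all 24, while the other 2 exceeded every activated control array. The activated difference from Control-768 was accordingly 0.38 ± 0.36 at 0.25 µM and 0.03 ± 0.36 at 0.5 µM, and 0.43 and 0.78 without the arrays numbered 3. At 0.5 µM it lay between -0.48 and 0.78 over all left-out arrays, so its direction there depended on single arrays. Prdm1 rose in order of dose above both controls in 5 of the 6 same-numbered sets.

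Ahr was highest with 0.5 µM I-BET-762 in all 6 same-numbered sets, with no steady place for 0.25 µM. Activated cells had 109, 41.2 and 181 with 0.25 µM and 202, 77.5 and 1003 with 0.5 µM I-BET-762, and resting cells had 33, 37.2 and 59.8 with 0.25 µM and 59, 46.1 and 109 with 0.5 µM. The 1003 of the activated array numbered 3 was more than 3 times the next highest value, 311 in DMSO. The difference from Control-768 at 0.5 µM was 1.06 ± 0.64 in activated and 0.66 ± 0.64 in resting cells, and 0.45 and 0.34 without the arrays numbered 3. Without the 1003 array alone the activated difference was 0.11. At 0.25 µM it was -0.23 and 0.14. Only 1 of the 6 same-numbered sets ran from both controls up through 0.25 to 0.5 µM.

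Nfil3 was lower with I-BET-762 in resting cells. It had 2246, 2402 and 3598 with 0.25 µM and 1665, 1761 and 2144 with 0.5 µM, against the 2974 to 4297 of Control-768 and the 3223 to 4106 of DMSO. The 0.5 µM arrays lay below all other resting arrays. The difference from Control-768 was -0.39 ± 0.48 at 0.25 µM and -0.93 ± 0.48 at 0.5 µM. The 3 same-numbered differences were -0.40, -0.52 and -0.25 at 0.25 µM and -0.83, -0.96 and -1.0 at 0.5 µM.

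In activated cells Nfil3 had 1204, 1831 and 737 with 0.25 µM and 1076, 1206 and 359 with 0.5 µM, against 1473, 1649 and 614 with Control-768. These groups overlapped, and the 359 was the lowest of all 24 arrays. Its difference from Control-768 was 0.04 ± 0.48 at 0.25 µM and -0.55 ± 0.48 at 0.5 µM, and -0.069 and -0.45 without the arrays numbered 3. Over all left-out arrays it ranged from -0.40 to 0.37 at 0.25 µM, and at 0.5 µM from -0.99 without the Control-768 array 3 to -0.0062 without the 0.5 µM array 3. The group means ran from 3598 in resting DMSO cells to 880 in activated 0.5 µM cells, and the resting 0.25 µM and 0.5 µM groups were the only neighbours in that order without overlap.

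**Figure D4:**
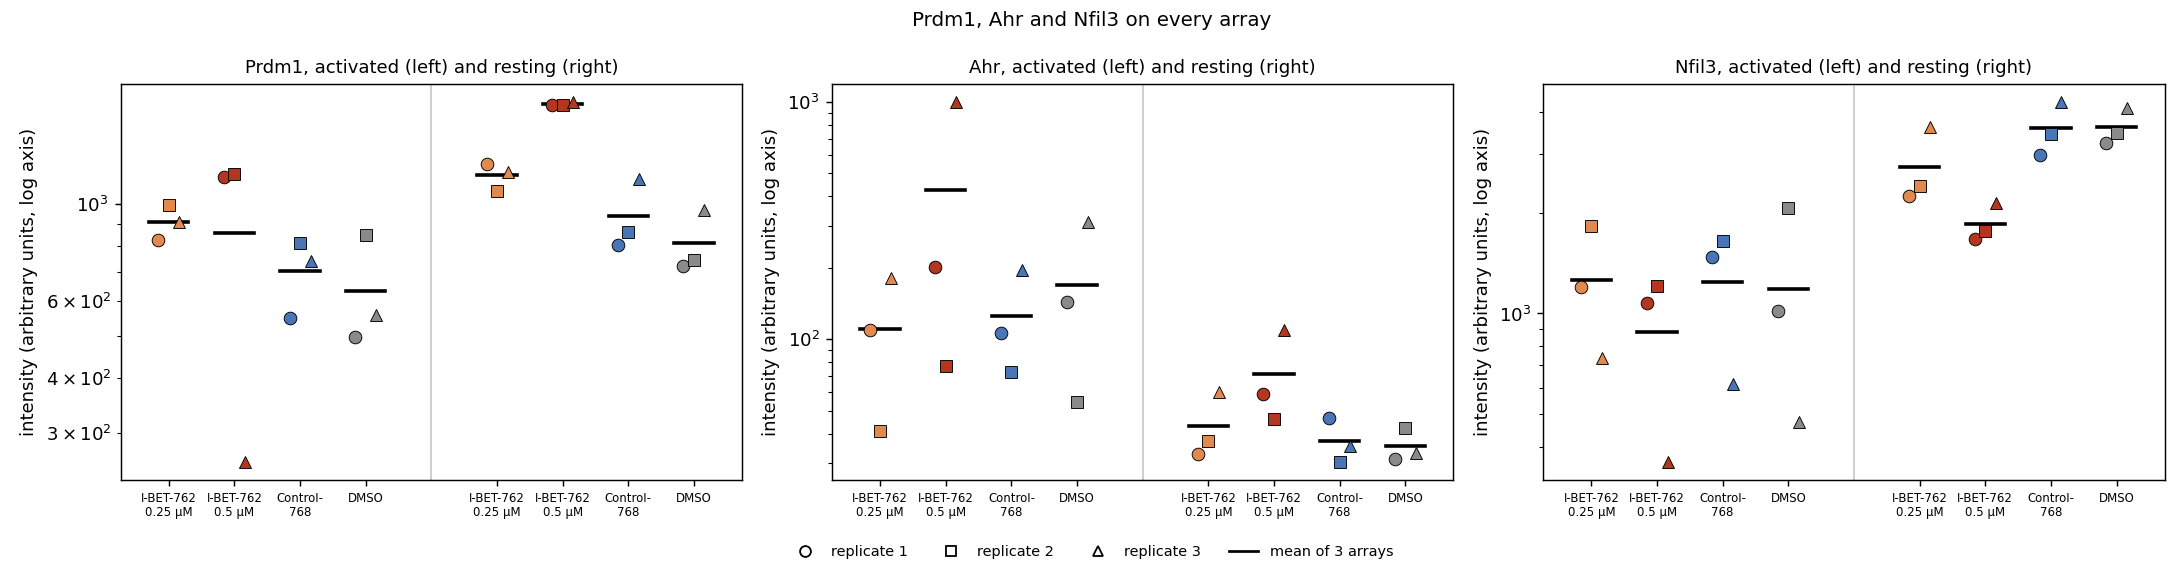
Intensity on a log axis of Prdm1, Ahr and Nfil3 on each of the 24 arrays, by compound, with activated groups on the left and resting groups on the right of each panel; symbols are replicate numbers and bars the means of 3 arrays. Resting 0.5 µM I-BET-762 arrays are the highest for Prdm1 and the lowest resting arrays for Nfil3, and the activated 0.5 µM array numbered 3 stands apart for Prdm1 and Ahr.

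Across the 12 arrays of each state, which share the dose series and, by replicate number, their deviations, Il10 correlated with Maf at r = -0.572 in activated and -0.721 in resting cells. With Nfil3 it correlated at -0.824 and -0.830, with Ahr at 0.750 and 0.611, and with Prdm1 at -0.160 and 0.910. The arrays numbered 3 bear on the activated values. There the deviations from the group mean were 0.782 to 1.6 log2 units for Il10 and 0.68 to 1.89 for Ahr. For Nfil3 they were -1.08 to -0.663 and for Prdm1 -1.41 to 0.0974. Correlations without these arrays are not given. The 5 genes most like Il10 by the mean of the activated and resting correlations, among 9670 genes with a mean intensity of at least 64, were Dusp4 (0.969), Phlda1 (0.961), Ccl4 (0.947), Chst2 (0.946) and Morrbid (0.938). Dusp4, a phosphatase of MAP kinases, averaged 2095 with 0.25 µM and 3272 with 0.5 µM I-BET-762 in activated cells, against 1520 with Control-768. Most like Maf were Cpm (0.952), Dok2 (0.947), Rora (0.930), Ttc39c (0.927) and Gsdmd (0.924). Cpm, a carboxypeptidase gene, averaged 149 and 90.2 with 0.25 and 0.5 µM in activated cells, against 324 with Control-768.

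Around the members, 10 lists of genes tied to IL-10 or to the 4 factors held 95 genes, of which 85 were measured. The lists were chosen with earlier results of these data known. Their counts beside the shares of all genes, here and below, are therefore descriptions and do not test enrichment. Without a block for the replicate number, with 0.5 µM I-BET-762 in resting cells, 6 of the 85 were called higher and 5 lower than with Control-768, where 0.478% of all genes were called higher and 0.929% lower. In activated cells 1 was higher and 1 lower, with 0.231% and 0.495% of all genes called. At 0.25 µM, 1 was higher in resting cells and none in activated cells, with 0.022% of genes higher and 0.044% lower at rest, and 0.0275% higher and 0.044% lower after activation. For that last comparison 729 of all genes had an unadjusted p under 0.05.

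Because replicate numbers paired the arrays within a state, the fit with the replicate number as a block in each state is given beside it. It called 15 of the 85 higher and 9 lower with 0.5 µM in resting cells, against 2.22% and 3.31% of all genes, and 9 higher and 4 lower in activated cells, against 1.37% and 1.98%. At 0.25 µM it called 2 higher in resting cells, against 0.137% of all genes higher and 0.396% lower, and 3 higher in activated cells, against 0.126% and 0.264%. The genes called without the block were also called with it, 2 of 2 in activated and 11 of 11 in resting cells at 0.5 µM. Further calls with the block included Gata3, which encodes the Th2 factor, at 1.45 ± 0.16 in activated (adjusted p = 3.94e-05, limma) and 1.67 ± 0.16 in resting cells (adjusted p = 6.6e-06). Egr2, a factor induced through the T cell receptor, differed by 2.04 ± 0.24 in resting cells (adjusted p = 4.68e-05, limma), and Eomes, a T-box factor, by -1.36 ± 0.23 in activated cells (adjusted p = 0.00292, limma).

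Of 9 listed genes that neighbour Il10 or belong to its cytokine family, 7 were measured. Without the block they showed 2 lower calls in resting and 1 in activated cells with 0.5 µM I-BET-762. The list's median difference was 0.03 in activated and -0.25 in resting cells, against 0.00 over all genes. In RefSeq's order of protein-coding genes along chromosome 1, Il10 stands between Il19, which was not analysed here, and Mapkapk2, with Il20, Il24 and Fcmr beyond Il19. Il24, an IL-10 family cytokine, had 553, 286 and 565 with 0.5 µM I-BET-762 in activated cells, against 2464, 2012 and 1604 with Control-768. It fell by 2.12 ± 0.36 log2 units there (adjusted p = 0.00326, limma) while Il10 stood 1.60 higher.

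In resting cells Il24 had 13.3, 12.6 and 13.5 with 0.5 µM, against 98, 107 and 37.3 with Control-768, a difference of -1.64 ± 0.36 (adjusted p = 0.0198, limma). The 0.5 µM arrays were so dim that the added constant bears on the size of this difference, and with a constant of 64 the call was lost. It was also lost without array 1 or 3 of the 0.5 µM group, without array 1 or 2 of Control-768, and without replicate 1 or 2 as a whole, with an adjusted p of up to 0.605. The activated call was lost without replicate 1 or 2 as a whole (adjusted p of up to 0.369, limma). Fcmr, which encodes a receptor for IgM, had 53.3, 77.4 and 17 with 0.5 µM in resting cells, against 357, 389 and 324 with Control-768, and fell by 2.64 ± 0.28 (adjusted p = 1.4e-05, limma), a call lost only when the 2 compared groups were fitted alone (adjusted p = 0.0722). In activated cells it had 216, 181 and 134, against 456, 408 and 289, a difference of -1.05 ± 0.28 that missed the threshold without the block (adjusted p = 0.0962) and passed with it (adjusted p = 0.0107, limma). Mapkapk2, the neighbour on the other side, had 4391, 5094 and 5786 with 0.5 µM, against 4858, 5315 and 5835 with Control-768, in activated cells.

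**Figure D5:**
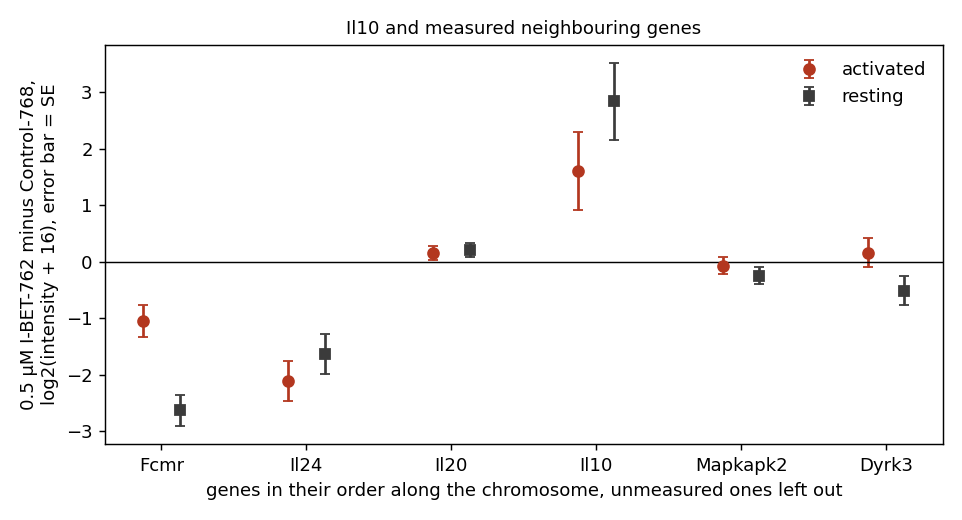
Difference between 0.5 µM I-BET-762 and Control-768 (y axis, log2(intensity + 16)) for Il10 and the listed and measured genes around it, in their order along the chromosome, with circles for activated and squares for resting cells; error bars are SE. Neighbours in none of the gene lists, such as Eif2d and Rassf5, are not drawn. Il10 lies above 0 in both states, while Il24 and Fcmr lie below it and Il20, Mapkapk2 and Dyrk3 lie within 1 log2 unit of it.

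Of genes of type 1 regulatory T cells, a kind of T cell known for IL-10, 9 were measured. At 0.5 µM without the block, 1 was called higher in activated and 2 in resting cells, with none lower. The median difference was 0.14 and 0.39. With the block in each state, 3 were higher and 1 lower in activated cells, and 4 higher in resting cells. The lower call was Ctla4 (-0.50). Calls made only with the block included Havcr2 (1.18 in activated and 2.00 in resting cells) and Itga2 (0.43 and 0.39). Lag3, an inhibitory receptor of type 1 regulatory T cells, had 1384, 1401 and 1903 with 0.5 µM in activated cells, against 326, 329 and 376 with Control-768. In resting cells it had 1938, 1268 and 2732, against 297, 277 and 252. It rose by 2.12 ± 0.22 log2 units in activated cells (adjusted p = 1.72e-05, limma) and by 2.71 ± 0.22 in resting cells (adjusted p = 4.53e-07, limma), and no left-out array ended either call. At 0.25 µM it rose by 1.29 ± 0.22 in resting cells (adjusted p = 0.02, limma), a call lost without any one Control-768 array or without array 1 or 3 of the 0.25 µM group. In activated cells the difference of 1.09 had an adjusted p of 0.0891 without the block and 0.026 with it. Pdcd1, which encodes PD-1, had 430, 419 and 611 in resting cells with 0.5 µM, against 163, 160 and 107 with Control-768, with a difference of 1.66 ± 0.41 just past the threshold (adjusted p = 0.0499, limma). Its call was lost without any one of these 6 arrays, and with a constant of 1 or 64.

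Among 20 other factors reported to act on Il10, 3 were higher and 2 lower with 0.5 µM I-BET-762 in resting cells without the block. None passed in activated cells in that fit. The medians were 0.07 in activated and 0.19 in resting cells. Tbx21, which encodes the Th1 factor T-bet, had 2188, 2026 and 2638 in resting cells with 0.5 µM, against 1041, 1099 and 1321 with Control-768, and rose by 0.97 ± 0.14 (adjusted p = 0.000329, limma). Rbpj, the nuclear partner of Notch, had 2112, 2190 and 1969, against 3646, 4166 and 3955, and fell by 0.90 ± 0.13 (adjusted p = 0.000475, limma). Smad3, a TGF-beta signal carrier, fell by 0.75 ± 0.15, and Ikzf3, which encodes Aiolos, rose by 1.52 ± 0.33, with array 3 at 3288 and the others at 951 and 846 (adjusted p = 0.00881 and 0.0187, limma). Smad3 was lost without array 1 of the 0.5 µM group, and Ikzf3 without array 1 or 2 of Control-768. Ikzf3 differed by 0.97 without the arrays numbered 3 (adjusted p = 0.00434, limma). The remaining call, Batf, rose by 0.80 ± 0.19 (adjusted p = 0.0426, limma) and was lost without any one of the 6 arrays compared, and with a constant of 1.

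Without the block, receptors whose signals induce Il10 gave 1 call among 10 at 0.5 µM in resting cells. That was Il6st, the gp130 subunit shared by IL-6 and IL-27 receptors, which rose by 1.41 ± 0.35 (adjusted p = 0.0496, limma), with 930, 749 and 2752, against 510, 477 and 394 with Control-768. The call was lost without any one Control-768 array, without array 1 or 3 of the 0.5 µM group, and with a constant of 1 or 64. The difference was 0.74 without the arrays numbered 3 (adjusted p = 0.19, limma). Among 9 measured relatives of Nfil3 and clock genes, Nr1d2, which encodes the clock repressor REV-ERB beta, was the only call without the block. It had 137, 175 and 125 in resting 0.5 µM cells, against 307, 317 and 520, a difference of -1.27 ± 0.22 (adjusted p = 0.00279, limma). Tbx21, Rbpj and Nr1d2 lost their calls when replicate 1 or replicate 2 was left out as a whole, with adjusted p of up to 0.169, 0.145 and 0.197, or when only the 2 compared groups were fitted. That restricted fit also ended the resting calls of Smad3, Ikzf3, Il6st, Pdcd1 and Batf at 0.5 µM (limma's adjusted p 0.315, 0.46, 0.468, 0.0638 and 0.0741). Il24 was lost in it too (0.151 in resting and 0.0817 in activated cells), as was Lag3 at 0.25 µM in resting cells (0.16). At 0.5 µM only Lag3 kept its calls there.

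The lists of genes tied to Maf, AHR and Blimp-1 held no call at either dose and state without the block. None of the 6 measured genes reported as Maf targets passed, with medians of -0.35 in activated and -0.34 in resting cells at 0.5 µM. Il21, the T cell cytokine gene among them, averaged 1280 ± 238 with 0.5 µM in activated cells and 2774 ± 1266 with Control-768 (SD, n = 3 arrays each), a difference of -1.0 ± 0.38 (adjusted p = 0.425, limma). Ctla4, an inhibitory receptor gene, differed by -0.50 ± 0.17 there and passed only with the block (adjusted p = 0.0191, limma). None of 9 measured AHR partners and targets passed either. Tiparp, a gene that AHR induces, averaged 764 ± 436 in activated cells with 0.5 µM and 356 ± 88.8 with Control-768, and passed only with the block (difference 0.96, adjusted p = 0.0109, limma).

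Of 7 measured Maf relatives and partners, Mafg was nearest the threshold, at -0.56 ± 0.14 in resting cells with 0.5 µM (adjusted p = 0.0528, and 0.0156 with the block, limma). Of 7 measured genes reported as repressed by Blimp-1, or opposing it, none passed without the block. With it Id3 and Myc fell by 0.95 ± 0.18 and 0.86 ± 0.20 in resting cells, and Bcl6, the counterpart of Blimp-1, rose by 1.21 ± 0.21. In the pathway that answers IL-10, none of 7 genes passed without the block, and Socs3, the feedback inhibitor induced by STAT3, differed by 0.97 in resting cells with 0.5 µM, with an adjusted p of 0.104 without and 0.00141 with the block from limma.

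The same lists were read for restimulation, where 18 of the 85 genes were called higher and 6 lower with Control-768, and 20 higher and 6 lower with DMSO. Over all genes 8.86% were higher and 11.2% lower with Control-768 and 9.1% and 11.7% with DMSO, so the lower calls in the lists are no larger a share than among all genes. In the receptor pathway Il10ra, the ligand-binding chain for IL-10, averaged 106 ± 49.2 in activated cells and 304 ± 30.6 in resting cells with Control-768 (SD, n = 3 arrays each) and fell by 1.48 ± 0.40 (adjusted p = 0.012, limma), a call lost without activated array 3, and likewise with DMSO. Among factors acting on Il10, Batf rose by 2.08 ± 0.19, Tbx21 by 1.64 ± 0.14, Egr2 by 2.95 ± 0.51 and Eomes by 1.92 ± 0.34 with Control-768, and all 4 were also called with DMSO. Il24 rose by 4.47 ± 0.36, close in size to Il10, and Mapkapk2 by 0.92 ± 0.15. Tiparp fell by 1.46 ± 0.42 (adjusted p = 0.0179, limma) where Ahr itself was measured higher without passing, and its call was lost without activated array 1 or resting array 3 of either control. Dbp, a relative that NFIL3 opposes at shared sites, fell by 1.84 ± 0.30 (adjusted p = 0.000303, limma) alongside Nfil3, and missed the threshold only without replicate 1 (adjusted p = 0.0505).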

How the data were processed

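Per the labels' protocols, RNA from 24 samples was amplified for 2 rounds, biotin labelled and hybridised to oligonucleotide arrays. The authors deposited 1 linear intensity per probe set and array; how they were summarised and normalised was not given in the sources used here. The array maxima were close, at 20543 to 21728, which does not by itself tell how the arrays were scaled. From these intensities, log2(intensity + 16) was taken without further scaling. Of 45101 probe sets, 34945 carried 1 gene symbol, 932 several, and 64 were array controls, which were left out. The probe set with the highest mean per gene was kept, and 18193 genes were fitted with limma 3.58.1 in R 4.3.3, with 8 group means in 1 fit (16 residual degrees of freedom) and Benjamini-Hochberg adjustment at 0.05. The median 95% half-width of a difference between 2 groups was 0.392 log2 units, and precision is limited by the number of arrays.

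The members and gene lists were chosen with earlier results of these data known. Named were all members, up to 4 called genes per list with the smallest adjusted p (or 2 with the smallest p), and the 5 genes most like Il10 and Maf; other block-only calls, Batf in resting cells, and arrays singled out were named after their values were seen. Same-numbered arrays of a state deviated together in all 18 activated pairs (r from 0.154 to 0.562) and all 18 resting pairs (0.196 to 0.697), but in 16 of 48 pairs across states, where the cut was 0.1, so numbers were taken as pairs within a state only. On simulated data for the Control-768 restimulation comparison over 18193 genes, 80% of 100 genes changed by 1 log2 unit and 99% of 100 changed by 2 were recovered, with 10 false calls among 189. The changed genes were drawn from brighter genes only, and the noise was independent between arrays. Apart from these changes all 8 groups shared 1 mean per gene. Far fewer genes were changed than the 3640 called in the real comparison, so the rates need not hold there. Deviations shared by same-numbered arrays were not simulated, so these rates do not describe paired arrays or a dim gene such as Ahr. Promoters came from RefSeq (GRCm38.p6), for 2 of 5 members. Alternatives covered the constant, normalisation, probe set choice, a filter on dim genes, blocks, the groups fitted and left-out arrays.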

Additional observations from a re-analysis of the deposited data

How the results depend on the processing

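No called result changed direction. Of 839 alternative values for the members, 61, in 20 of 45 results, had the other sign, all in results that were not called or had no test. For Maf with I-BET-762 only the probe set at the floor did so. Gene counts for I-BET-762 depended on how replicate numbers were treated and on which arrays were fitted. With the replicate block over all arrays, 338 genes were called at 0.5 µM in activated and 566 in resting cells, and 39 and 40 at 0.25 µM, against 132, 256, 13 and 12 without it. Using a replicate block inside each state, as the pairing was found, these counts were 610, 1005, 71 and 97. Fitting only the compared groups, with fewer arrays to estimate the spread, left 28, 29, 2 and 0. For the 85 list genes, the 11 calls at 0.5 µM in resting cells became 17 with the replicate block over all arrays, 24 with it inside each state, 1 with only the compared groups, and 2 to 17 with arrays left out. The 2 calls at 0.5 µM in activated cells became 8, 13, 1 and 1 to 8, and the 24 restimulation calls with Control-768 ran from 9 to 37. A constant of 1 gave 8 calls at 0.25 µM in activated cells, and a constant of 64 gave 19 at 0.25 µM in resting cells. Control-768 against DMSO in activated cells gave 1 call with quantile normalisation and 1 with the replicate block over all arrays, against 0. Fitting all probe sets raised the restimulation counts to 6674 with Control-768 and 7124 with DMSO, from 3640 and 3782 genes, since probe sets then count one by one.

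Ahr passed for restimulation with the replicate block over all arrays (1.32, adjusted p = 0.0429 with Control-768, and 1.59, adjusted p = 0.0155 with DMSO, limma) and with only the compared groups for Control-768 (1.32, adjusted p = 0.0324); the cause was not tested. On other probe sets, the Maf difference from Control-768 was -2.18 at 0.25 µM on the second brightest and -2.30 at 0.5 µM on the fourth brightest in activated cells. On the fifth, which was dim, it was -0.54 and -0.72 in activated and -0.44 and -0.35 in resting cells at 0.25 and 0.5 µM, and on the dimmest, at the floor, 0.18, 0.017, -0.083 and -0.019. Ahr on its dimmer probe set differed by 0.015 at 0.5 µM in resting cells.

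Leaving out arrays moved the counts from 640 to 4887 and from 432 to 5056 for restimulation with Control-768 and DMSO, the low ends being without replicate 1. They moved from 12 to 498 at 0.5 µM and 0 to 57 at 0.25 µM in activated cells, from 13 to 737 and 0 to 80 in resting cells, with the high ends without replicate 3. For Control-768 against DMSO they ran from 0 to 1 in both states. Nfil3 ranged from -1.92 to -1.03 with Control-768 and -2.36 to -1.19 with DMSO, and Ahr with DMSO from 1.02 to 2.24, passing without replicate 2 (adjusted p = 0.0424) and without the activated DMSO array numbered 2 (adjusted p = 0.0325, limma).

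No test of activated against resting cells was made with the block within each state, since that block holds each state apart. Probe sets near the floor limit what can be read for Ahr and 2 Maf probe sets. Among the list calls at 0.5 µM, Lag3 held in all 16 settings run in each state (highest adjusted p 0.0453 in activated and 0.0281 in resting cells), and Fcmr in resting cells in 15.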
